A study of Mus musculus with 13 samples.

Results

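The cytosolic ribosome of mouse CD4 T cells was followed through the mRNAs of its protein components. Members were all genes whose symbol is Rps or Rpl followed by a number, by the letter a, or by p0, p1 or p2, with an optional a or x after a number. This rule took 77 of the 18649 genes in the table, 31 of the small (Rps) and 46 of the large (Rpl) subunit, and used no measured value. All 77 passed the filter on low values (a mean scaled count of at least 10), which 14177 genes passed in all, and the lowest member in any library held 1319 reads.

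The small subunit decodes the mRNA and the large subunit joins the amino acids, and each is built in the nucleolus from ribosomal RNA and a set of proteins that are mostly needed in equal numbers. In mammals the mRNAs of these proteins share a start with a cytosine and a run of pyrimidines, the 5′ terminal oligopyrimidine (5′ TOP) tract, through which mTORC1 and the RNA-binding protein LARP1 control their translation and stability. T cells leaving quiescence are known to enlarge their ribosome supply, and Myc is a known activator of ribosomal genes.

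Splenic CD4+ T cells had been sorted by surface PD-1 and by a green fluorescent reporter of Foxp3. PD1hi cells (3 libraries) were high for PD-1 and negative for the reporter, Treg (regulatory T cells, 5 libraries) carried the reporter and no PD-1, and Tconv (conventional T cells, 5 libraries) were negative for both. All come from mice with the Foxp3 reporter, so no group is free of that allele, and the labels used here give neither age nor strain nor any treatment. By their titles the libraries belong to experiments 3, 5 and 6, each of which holds every population, and 4 are marked as replicates within an experiment. Whether a marked library came from other mice or from RNA already used is not stated. Each was averaged with its partner, so p-values of the main fit measure the spread between experiments. An alternative fit over all 13 libraries keeps them apart, and there part of the spread may be technical.

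Libraries held 15971126 to 24216463 reads in genes. Foxp3 was at 12904 to 18885 scaled counts in Treg libraries and at 67.7 to 332 in all others. Pdcd1, which encodes PD-1, was at 33610 to 39713 in PD1hi libraries. It was at 1715 to 2266 in Treg and 901 to 1374 in Tconv libraries, which did not overlap. Of 4 pairs from the same experiment and population, 3 had a chi-square per degree of freedom of 7.77 to 9.05 over reads (1 would be sampling noise), but the Treg pair of experiment 3 had 73.5. Its second library had Cd4 at 9908 scaled counts, against 17302 to 20389 in the other 4 Treg libraries. The PD1hi library of experiment 6 had 59.5 and 66.2 against the other PD1hi libraries, while those had 22.3 against each other. Results are given with all libraries, and counts of members also without these 2.

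Transcription starts of members were looked up because the 5′ TOP tract is what the family is best known to share. RefSeq promoter entries (GRCm38.p6) matched 56 of the 77 members. The search took C followed by at least 5 bases that are each C or T, from 20 bases before to 20 bases after the annotated start, on the transcribed strand. Such a tract lay at 40 of 66 member starts, or 60.6%, against 29.7% of 11108 starts of other tested genes and 29.4% of all 32851 starts. On the other strand the shares were 16.7% of member starts and 32.3% of all starts. The windows below run from 10 bases before the start and through 20 bases from it, 5′ to 3′, with such tracts in capitals. Rps27, Rps6, Rpl35 and Rpl28 are shown as members that hold one at the start, and Rps19, Rps7, Rps2 and Rpl39 because they departed most from the family in level.
Rps27 (chr3:90213629-90213658, minus strand): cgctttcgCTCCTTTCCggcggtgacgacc
Rps6 (chr4:86857348-86857377, minus strand): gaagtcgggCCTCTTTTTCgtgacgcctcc
Rpl35 (chr2:39005112-39005141, minus strand): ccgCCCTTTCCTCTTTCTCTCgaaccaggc
Rpl28 (chr7:4792955-4792984, plus strand): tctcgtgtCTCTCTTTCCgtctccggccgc
Rps19 (chr7:24884582-24884611, plus strand): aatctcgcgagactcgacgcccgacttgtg
Rps7 (chr12:28635934-28635963, minus strand): cggtttccacccacctacttccgctgtccc
Rps2 (chr17:24720053-24720082, plus strand): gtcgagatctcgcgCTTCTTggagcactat
Rpl39 (chrX:37085203-37085232, minus strand): gctccgcctctagcgaCTTCTTCTaatcgc
The tract spans or meets the annotated start in the first 4. It lies inside the transcript in Rps2 and Rpl39, and these windows of Rps19 and Rps7 hold none. Rps19 has 3 promoter entries, and its other annotated starts are not shown here. A match here is a description of letters beside an annotated start and not of where transcription began in these cells.

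The family as a whole took the smallest share of the transcriptome in PD1hi and the largest in Tconv. Its 77 members held 3.99%, 3.73% and 4.53% of all scaled counts in the PD1hi libraries of experiments 3, 5 and 6. In Treg libraries they held 5.34% and 6.55% in experiment 3, 4.51% in experiment 5, and 4.47% and 4.49% in experiment 6. In Tconv libraries they held 7.92% in experiment 3, 7.41% and 7.82% in experiment 5, and 7.10% and 6.66% in experiment 6. Every Tconv library lay above every PD1hi and Treg library, while the PD1hi library of experiment 6 lay above 3 of the 5 Treg libraries. With libraries of the same experiment and population averaged, the shares were 4.08% ± 0.411 in PD1hi, 4.98% ± 0.837 in Treg and 7.47% ± 0.535 in Tconv (SD, n = 3 each). The summed level of the family was 0.493 times that of Tconv and 0.776 times that of Treg in PD1hi, and 0.635 times that of Tconv in Treg. These are bulk samples, in which fewer cells of a type and less RNA per cell cannot be told apart.

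**Figure D1:**
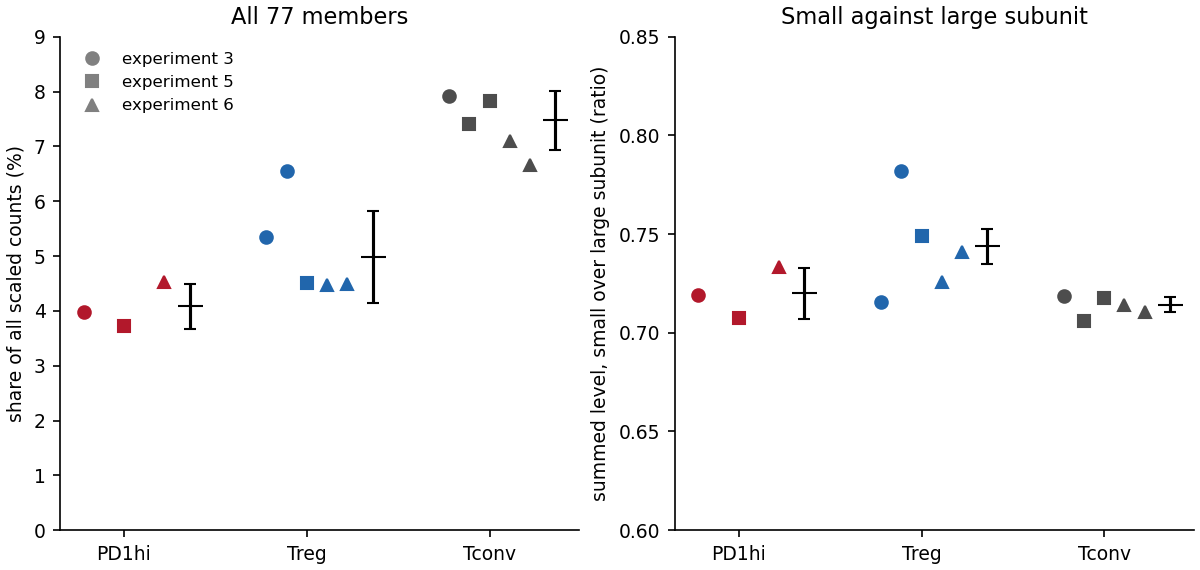
Left, the share of all scaled counts held by the 77 members in each of the 13 libraries (y axis, %); right, the summed level of small over large subunit genes (ratio, axis cut at 0.6). Symbols give the experiment, and the bar beside each population is the mean ± SD of 3 values, 1 per experiment; all Tconv libraries lie between 6.66% and 7.92%, above all others, and the highest ratio is 0.782 in the second Treg library of experiment 3.

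The comparison of PD1hi with Tconv asks how cells high for PD-1 differ from conventional cells of the same experiments. Nearly the whole family was lower in PD1hi: 76 members fell, none rose, and 1 did not pass the test (limma, Benjamini-Hochberg adjusted p under 0.05), when 26.1% of all tested genes were called, 14.2% higher and 11.9% lower. Their median log2 difference was -0.97, with quartiles of -1.08 and -0.86, against a median of 0.00 and quartiles of -0.37 and 0.47 over all tested genes. Of all tested genes, 8.51% lay below the family's median. In all 77 members the 3 PD1hi values lay below the 3 Tconv values, which held for 19.4% of all tested genes. Experiment by experiment, the family's median was -1.10, -1.02 and -0.78, with all 77 members below 0 each time. Without the 2 libraries that stand apart, 77 members fell, with a median of -0.999.

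Rps19 (ENSMUSG00000040952), a small subunit protein whose partial loss causes Diamond-Blackfan anaemia in humans, had the largest fall. It was at 11655, 12551 and 13224 scaled counts in the PD1hi libraries of experiments 3, 5 and 6. Treg libraries held 21931 and 24507 (experiment 3), 17669 (experiment 5), and 16925 and 18270 (experiment 6). Tconv libraries held 38040 (experiment 3), 37143 and 38170 (experiment 5), and 34431 and 28947 (experiment 6). The 3 populations did not overlap, and the log2 difference of PD1hi from Tconv was -1.52 ± 0.14 (SE, adjusted p = 1.18e-05), a ratio of means of 0.349. Rps7 (ENSMUSG00000061477), another small subunit protein that in humans can carry Diamond-Blackfan mutations, followed with 8878, 7875 and 7923 scaled counts in PD1hi, 14252, 14414, 10726, 12155 and 11154 in Treg, and 23977, 19653, 20904, 19354 and 19499 in Tconv. Its populations did not overlap either, and it fell by 1.36 ± 0.14 on the log2 scale (SE, adjusted p = 2.39e-05).

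The next largest falls were in both subunits. Rps20, a small subunit protein, averaged 5478 ± 469 in PD1hi and 13465 ± 1662 in Tconv, a log2 difference of -1.29 ± 0.16 (adjusted p = 8.84e-05). Rpl32, a large subunit protein, averaged 17756 ± 1136 in PD1hi and 42029 ± 4308 in Tconv, a difference of -1.24 ± 0.16 (adjusted p = 9.73e-05). Rpl12, which lies at the base of the stalk on which elongation factors act, averaged 5384 ± 203 in PD1hi and 12692 ± 1203 in Tconv, a difference of -1.23 ± 0.15 (adjusted p = 6.08e-05). Means are given with the SD over 3 values and differences with the SE of the limma fit.

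Members with known roles beyond the ribosome moved with the rest. Rps6, the ribosomal substrate of S6 kinase, was at 15342, 13298 and 14748 in PD1hi, at 22915, 25189, 17309, 19358 and 19712 in Treg, and at 35844, 29446, 29646, 31514 and 30885 in Tconv. No population overlapped another, and PD1hi fell by 1.15 ± 0.15 against Tconv (adjusted p = 0.000114). Rpl5 and Rpl11, which with 5S RNA form the particle that can bind Mdm2, fell by 1.07 ± 0.17 (adjusted p = 0.000482) and by 0.85 ± 0.16 (adjusted p = 0.00201). Rps3, at the entry of the mRNA channel, fell by 0.999 ± 0.14, Rpl13a, part of an interferon-controlled repressor complex in human myeloid cells, by 0.97 ± 0.15, and the X-linked Rps4x by 1.21 ± 0.15, each with an adjusted p of at most 0.000507. Rpl22, which mouse alpha-beta T cell development needs, was among the smaller falls at -0.67 ± 0.14 (adjusted p = 0.0031).

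The member not called was Rps2 (ENSMUSG00000044533), a small subunit protein at the mRNA entry site. It was at 3397, 3736 and 3982 scaled counts in PD1hi, at 3866, 5876, 4751, 3039 and 3325 in Treg, and at 5648, 5321, 6673, 4143 and 4470 in Tconv. PD1hi libraries lay below all Tconv libraries, though by little in experiment 6, and the log2 difference was -0.51 ± 0.18 (adjusted p = 0.061). With the experiment as a replicate block its adjusted p was 0.0440.

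**Figure D2:**
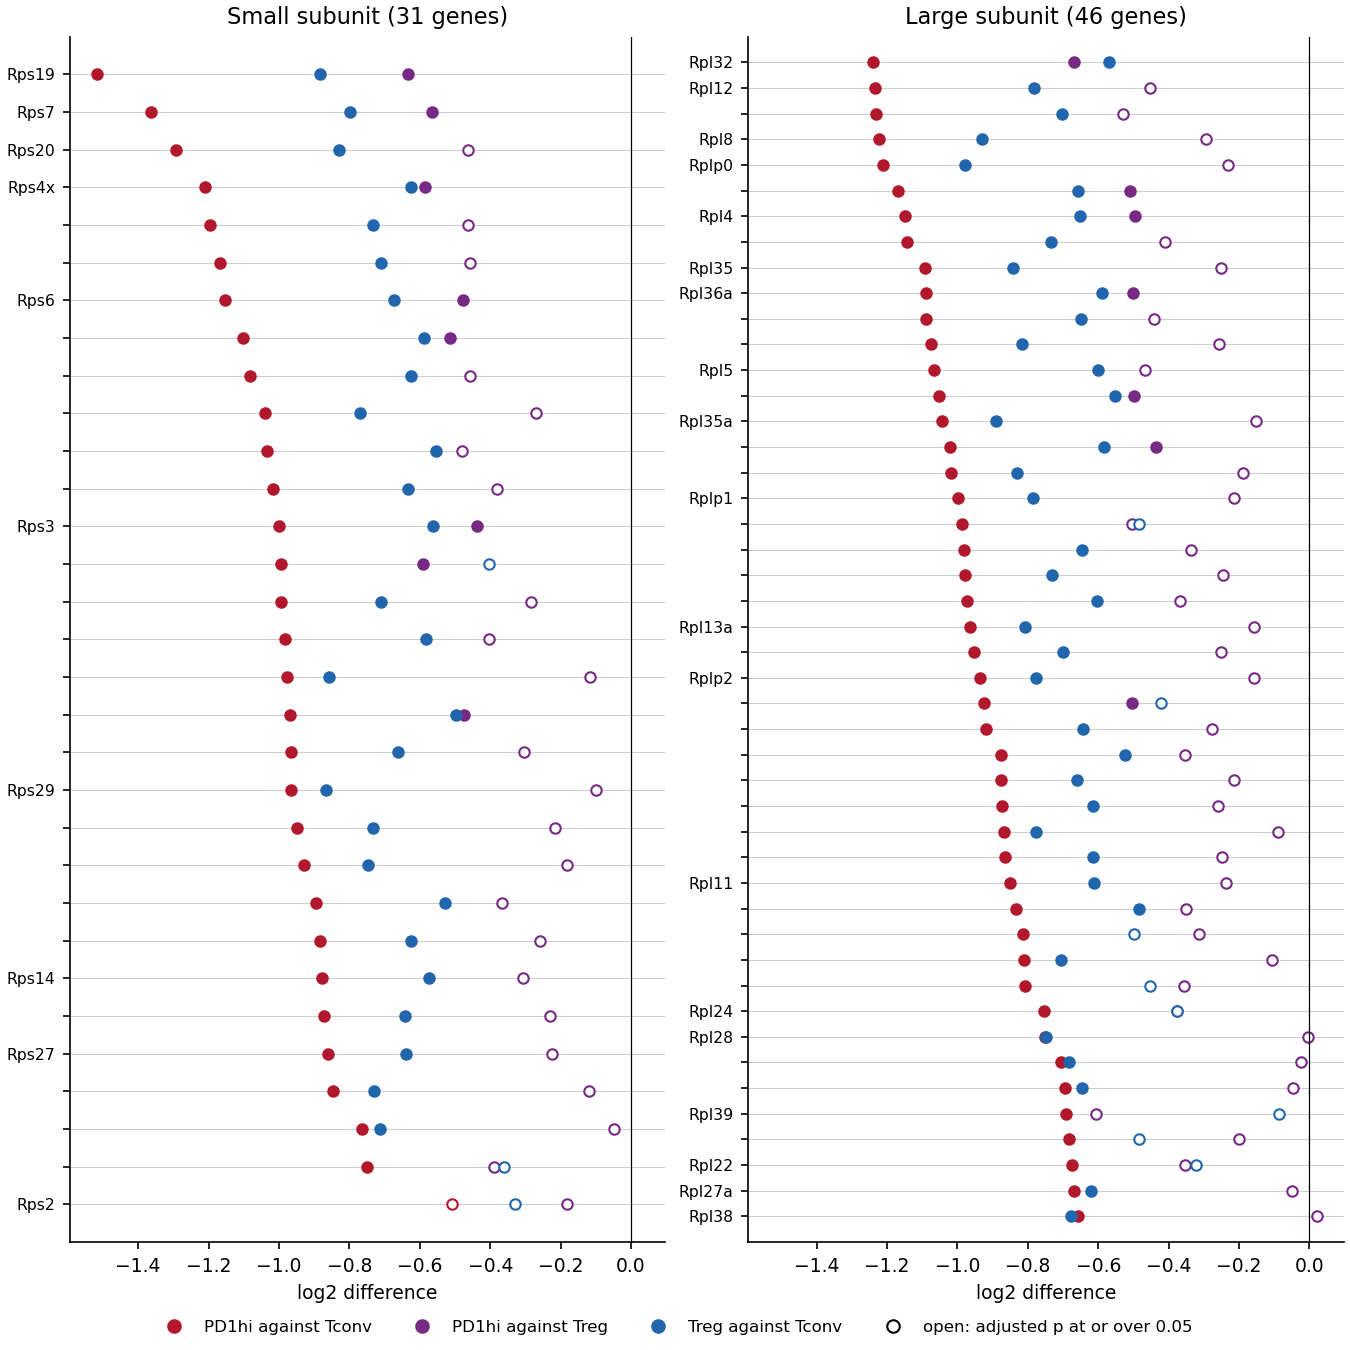
Log2 differences of every member (x axis, log2 of scaled count + 1) in PD1hi against Tconv, PD1hi against Treg and Treg against Tconv, with small subunit genes on the left and large subunit genes on the right, sorted by the first comparison and labelled where the text names them. Filled points passed the limma test; all points of the first comparison lie between -1.52 (Rps19) and -0.51 (Rps2), the only open one.

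The median of other short genes within the members' range of levels lay near 0. Members are short (median transcript 751 bases) and highly expressed. For 270 other genes under 1400 bases within the members' range of scaled counts, the median log2 difference in PD1hi against Tconv was -0.06. Of these 18.9% were lower and 15.2% higher, beside 11.9% and 14.2% of all tested genes. They were not matched to members within these bounds, and a part of length or level in the family's shift was not tested. When every library was scaled to the same total instead of by the deposited factors, the median of all tested genes moved to 0.14, the calls over all genes to 2457 higher and 1299 lower (against 2012 higher and 1688 lower), and the family's median to -0.83 with 74 members lower.

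Some marker lists of other cells and of proliferation also differed between the populations, while the myeloid sums overlapped. Summed over 6 B cell markers, PD1hi libraries held 1651 to 2261 scaled counts, Treg libraries 787 to 1221 and Tconv libraries 198 to 387. Cd22 alone made up 1488 to 1949 of this in PD1hi, where Pax5 was at 2.17 to 10.1. Cd79b was instead highest in Treg, at 450 to 724, against 50.9 to 159 in all other libraries. The 4 plasma cell markers summed to 3904 to 7326 in PD1hi, 6510 to 9580 in Treg and 2225 to 3246 in Tconv. Prdm1 made up 1537 to 3023 of this in Treg, against 399 to 859 in all other libraries. Igj was at 2353 to 4954 in PD1hi, 2858 to 5540 in Treg and 1073 to 2042 in Tconv. The 5 myeloid markers summed to 416 to 576 in PD1hi, 316 to 713 in Treg and 343 to 515 in Tconv. In this list Cd68 was higher in PD1hi (111 to 229, against 30.7 to 84.3 elsewhere) and Itgam lower (8.20 to 23.2, against 70.3 to 219). The 4 markers of CD8 T and NK cells summed to 255 to 518 in PD1hi, 326 to 542 in Treg and 1392 to 1519 in Tconv. Klrb1c made up 881 to 1032 of this in Tconv, against 83.5 to 362 elsewhere, and Cd8b1 377 to 520, against 54.4 to 318. Cd8a was at 0 to 21.5 in all libraries, and Ncr1 overlapped between the populations. The 8 cell cycle genes summed to 11287 to 16695 in PD1hi, 9286 to 13440 in Treg and 5554 to 6885 in Tconv. Of these, 7 of 8 were higher in PD1hi and 6 of 8 higher in Treg than in Tconv. Over all tested genes 14.2% and 8.73% were higher in these comparisons. The part of these marker lists in the family's differences was not tested.

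Members moved by similar amounts, and few departed from the family's own shift. Standard errors of members ran from 0.12 to 0.19 on the log2 scale, and differences within the family of that size, or not far above it, are not resolved. Rpl38, at 0.34 above the family's median in PD1hi against Tconv, was not called by the test that follows. Departure was tested by subtracting, in each value, the median log2 level of the 77 members from every gene, after which 72.1% of all tested genes were called in PD1hi against Tconv, 69.5% higher and 2.5% lower, so that the adjusted threshold is a lenient one there. By this test 3 members departed, and 4 had an unadjusted p under 0.05. That is about the number that this unadjusted threshold alone would give among 77 members, and the departures below carry this limit.

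Rps19 departed downward. Relative to the family's median its log2 level was 0.78, 1.06 and 1.01 in PD1hi, 1.24, 1.28 and 1.26 in Treg, and 1.43, 1.62 and 1.33 in Tconv. The 3 populations did not overlap, and the difference of PD1hi from Tconv was -0.51 ± 0.15 (SE, adjusted p = 0.0101). Without the PD1hi value of experiment 3 the adjusted p was 0.0528, and without the Tconv value of experiment 5 it was 0.0514.

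Rps7 also departed downward, with a relative log2 level of 0.38, 0.39 and 0.27 in PD1hi, 0.54, 0.56 and 0.67 in Treg, and 0.77, 0.73 and 0.63 in Tconv. PD1hi lay apart from both other populations, which overlapped, and the difference from Tconv was -0.36 ± 0.14 (adjusted p = 0.0373). Leaving out any of the 3 PD1hi or 3 Tconv values raised its adjusted p to between 0.0640 and 0.119. Rps2 departed upward, with -1.003, -0.69 and -0.72 in PD1hi, -1.02, -0.62 and -1.20 in Treg, and -1.32, -1.03 and -1.55 in Tconv. All PD1hi values lay above all Tconv values, with those of PD1hi in experiment 3 and Tconv in experiment 5 close together, and the difference was 0.49 ± 0.20 (adjusted p = 0.0421). Its adjusted p was 0.117 or 0.0834 when PD1hi of experiment 5 or 6 was left out, and 0.101 or 0.168 when Tconv of experiment 3 or 6 was.

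**Figure D3:**
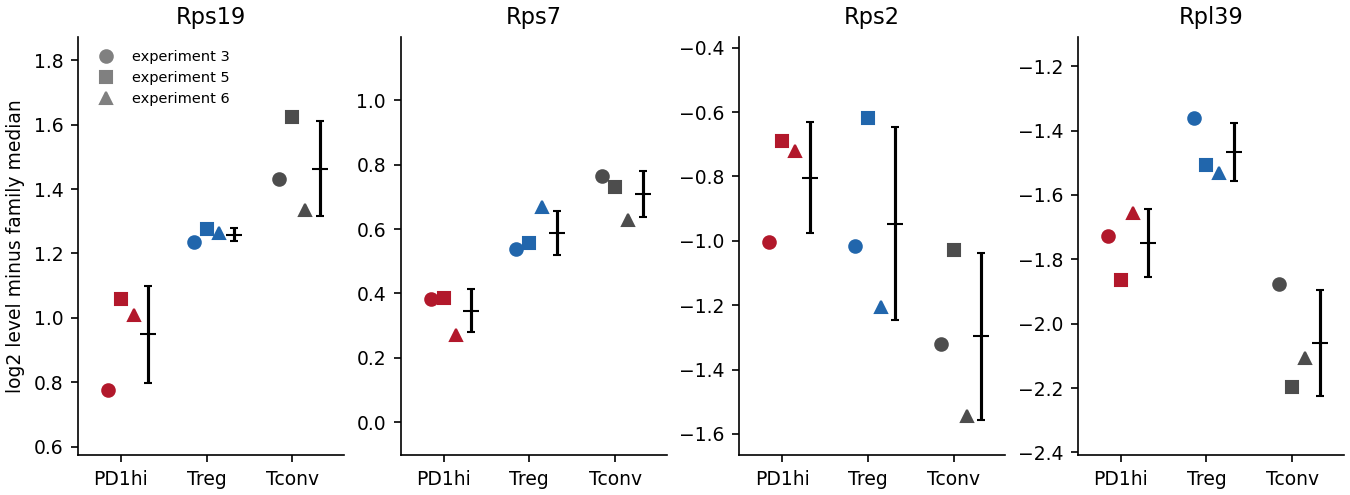
Log2 level of 4 members minus the median log2 level of all 77 (y axis, each panel 1.3 log2 units high) in PD1hi, Treg and Tconv. Points are the 3 values of a population, with symbols for the experiment, and bars are mean ± SD; Rps19 and Rps7 are lowest in PD1hi, Rps2 is lowest in Tconv, and Rpl39 is highest in Treg.

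PD1hi was next set against Treg, the cells sorted for the reporter and for no surface PD-1. Here 15 members fell (8 small, 7 large subunit), none rose and 62 did not pass, when 16.5% of all tested genes were called, 8.16% higher and 8.39% lower. The family's median log2 difference was -0.31, against -0.01 over all tested genes, of which 25.7% lay below it. It ran from -0.39 to -0.19 when a value was left out, and was -0.19 without the Treg value of experiment 3. In 40 of 77 members all PD1hi values lay below all Treg values, which held for 15.2% of all tested genes. Per experiment the median was -0.56, -0.28 and -0.15, with 77, 68 and 58 members below 0. The number of members called depends on the fit: it was 29 with the experiment as a replicate block, 25 without the 2 libraries that stand apart, 6 with every library scaled to the same total and 2 when limma was run without a trend. Without the Treg value of experiment 3, in which the family was highest, 2 members were called, and without the PD1hi value of experiment 5, 3 were. With PD1hi of experiment 3, Treg of experiment 6 or any Tconv value left out, 6 to 9 were. Among all tested genes 1189 were called lower in the main fit, 1297 with the block and 1372 without the 2 libraries. The number was 1037 with equal totals, 1024 without a trend, 932 without Treg of experiment 3 and 1055 without PD1hi of experiment 5.

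Rpl32 had the largest fall. It was at 19067, 17151 and 17050 scaled counts in PD1hi, at 31587, 38453, 24221, 26158 and 26738 in Treg, and at 46488, 41258, 42162, 39578 and 36201 in Tconv. PD1hi libraries lay below all Treg libraries, and the log2 difference was -0.67 ± 0.16 (SE, adjusted p = 0.0104). Rps19 fell by 0.63 ± 0.14 (adjusted p = 0.00944). Rpl32 and Rps19 stayed past the threshold under all 20 other settings tried. The same did not hold for Rps4x at -0.58 ± 0.15 (adjusted p = 0.016) and Rps7 at -0.56 ± 0.14 (adjusted p = 0.0169), each of which lost its call without the PD1hi value of experiment 5, without the Treg value of experiment 3 and when limma was run without a trend. Rps6 fell by 0.48 ± 0.15 (adjusted p = 0.0453) and Rps3 by 0.44 ± 0.14 (adjusted p = 0.0465, and 0.0508 with the replicate block). Both lie close to the threshold: Rps6 lost its call under 12 of the 20 other settings, with adjusted p of 0.0542 to 0.154, and Rps3 under 15, with 0.0506 to 0.145. With the block, Rpl12, Rpl24, Rpl39, Rpl5 and Rps20 passed as well, at adjusted p of 0.0335, 0.0394, 0.0125, 0.0355 and 0.0197. At the other end Rpl38, which in mouse embryos affects the translation of Hox mRNAs, was at 0.02 and did not pass the test. No member departed from the family's own shift here by the adjusted test (1 at an unadjusted p under 0.05), when 18.5% of all tested genes did, 14.1% upward and 4.39% downward. By the setting without the 2 libraries that stand apart, 1 departed.

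Treg were then set against Tconv, the comparison of reporter-positive with reporter-negative cells among those sorted as without surface PD-1. Of the members 66 fell (28 small, 38 large subunit), none rose and 11 did not pass, when 14.4% of all tested genes were called, 8.73% higher and 5.66% lower. The median log2 difference of the family was -0.65, against 0.01 over all tested genes, of which 8.68% lay below it. In 71 of 77 members all Treg values lay below all Tconv values, which held for 16.4% of all tested genes. Medians per experiment were -0.50, -0.79 and -0.65, with all 77 members below 0 in each. Without the 2 libraries that stand apart 75 members fell. With Treg of experiment 5, Treg of experiment 6 or Tconv of experiment 3 left out, 35, 35 and 34 members fell, and 44 did when limma was run without a trend. Over all tested genes 802 were lower in the main fit and 1195 without the 2 libraries. With those values left out 523, 605 and 498 were, and 637 without a trend.

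Rplp0, the stalk protein that anchors Rplp1 and Rplp2, had the largest fall. It was at 41054, 37579, 30398, 31346 and 30133 scaled counts in Treg, against 68875, 64643, 66113, 63549 and 61446 in Tconv, with no overlap. The log2 difference was -0.98 ± 0.14 (SE, adjusted p = 0.000542), and PD1hi libraries, at 28708, 25903 and 30445, reached into the Treg range. Rpl8, a large subunit protein near the peptidyl transferase centre, fell by 0.93 ± 0.14, Rpl35a, a large subunit protein with Diamond-Blackfan mutations in humans, by 0.89 ± 0.17, Rps19 by 0.88 ± 0.14 and Rps29, a zinc-binding small subunit protein, by 0.87 ± 0.14. Adjusted p ran from 0.000663 to 0.00345 over these 4. In PD1hi against Treg, Rplp0 differed by -0.23 ± 0.14 and Rpl8 by -0.29 ± 0.14, neither past the test. All 3 comparisons share samples, so their values stand side by side here and are not independent.

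Rpl39 (ENSMUSG00000079641), a very short protein that lines the exit tunnel of the large subunit, did not follow the family in Treg. It was at 3371, 4299, 2567, 2442 and 2633 scaled counts in Treg, at 3841, 2622, 2709, 2879 and 2956 in Tconv, and at 2057, 1653 and 2082 in PD1hi. Treg and Tconv libraries overlapped, with a log2 difference of -0.09 ± 0.19 (adjusted p = 0.849), whereas PD1hi lay below all of them at -0.69 ± 0.19 against Tconv (adjusted p = 0.0195). The adjusted p against Tconv was 0.0741 when PD1hi of experiment 5 was left out, 0.0975 when Tconv of experiment 3 was, and 0.0607 with all libraries scaled to the same total. Against the family's median Rpl39 was higher in Treg than in Tconv by 0.59 ± 0.16 (adjusted p = 0.0130), the only member to depart in this comparison. After the same subtraction 47.7% of all tested genes were called there, 45.8% higher and 1.92% lower. Of the 77 members 3 had an unadjusted p under 0.05 in this limma fit, no more than that threshold alone would give. The relative log2 levels of Rpl39 were -1.36, -1.51 and -1.53 in Treg and -1.88, -2.20 and -2.11 in Tconv, without overlap. With Tconv of experiment 5 left out the adjusted p was 0.0515, and with that of experiment 6 left out 0.0512. Rpl22 at -0.32 ± 0.14, Rpl24 at -0.38 ± 0.13 (adjusted p = 0.0698, and 0.0445 with the replicate block) and Rps2 at -0.33 ± 0.18 were also among the 11 not past the test.

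**Figure D4:**
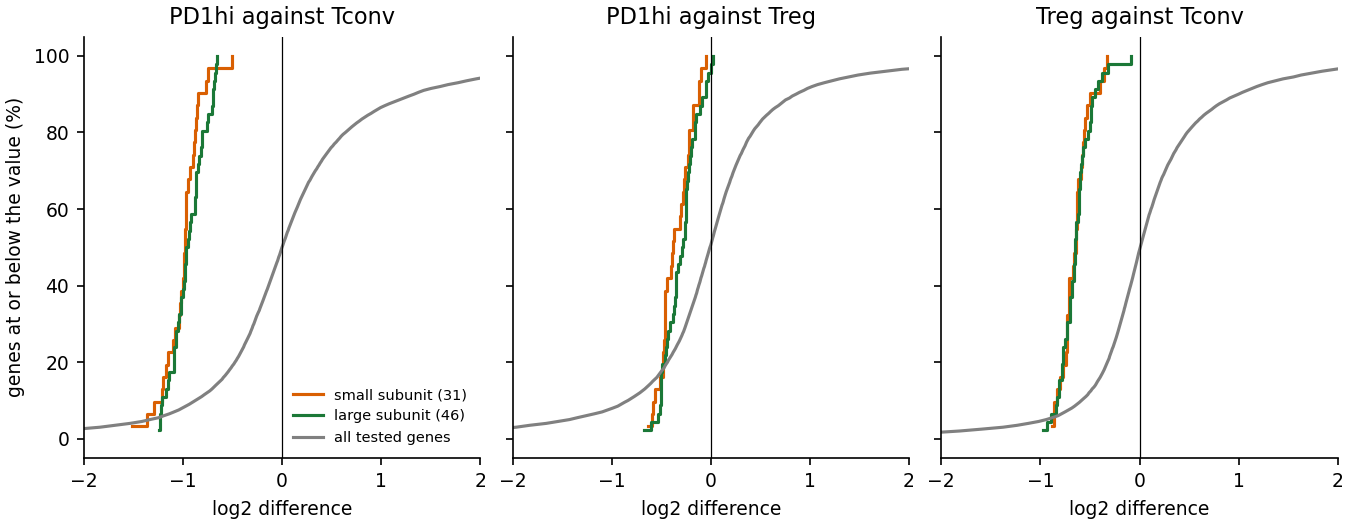
Cumulative share of genes (y axis, %) at or below a log2 difference (x axis) for the 31 small subunit genes, the 46 large subunit genes and all 14177 tested genes in each comparison. The member curves are steep and lie left of 0, with medians of -0.97, -0.31 and -0.65 from left to right, while the curve of all genes crosses 50% near 0.

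Small and large subunit genes moved together. The median log2 difference was -0.98 for small and -0.96 for large subunit genes in PD1hi against Tconv, -0.38 and -0.29 in PD1hi against Treg, and -0.64 and -0.65 in Treg against Tconv. Summed over each subunit, the small over large ratio was 0.719, 0.708 and 0.733 in PD1hi libraries. It was 0.716, 0.782, 0.749, 0.726 and 0.741 in Treg libraries, and 0.719, 0.706, 0.718, 0.714 and 0.711 in Tconv libraries. Means were 0.720 ± 0.0128 in PD1hi, 0.744 ± 0.00895 in Treg and 0.714 ± 0.00389 in Tconv (SD, n = 3 each). Treg libraries reached highest, but their lowest lay inside the range of the other populations. The median log2 level of small minus that of large subunit genes, a measure that a few abundant genes cannot carry, ordered the populations otherwise, with 0.32 ± 0.05003 in PD1hi, 0.30 ± 0.0433 in Treg and 0.28 ± 0.0509 in Tconv, within their spread.

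Levels within the family differed far more than its members' shifts. Means in Tconv ran from 2640 scaled counts for Rpl38 to 88031 for Rpl4. Per kilobase of transcript (scaled count per 1000 bases), Rps27, a zinc-finger protein of the small subunit, stood highest in every population with 55016 in PD1hi, 64741 in Treg and 100201 in Tconv. By the mean over the 3 populations Rpl32 followed, with 34344 in PD1hi, 55248 in Treg and 81294 in Tconv. Rps14, a small subunit protein lost in a human myelodysplastic syndrome, came next with 39962 in PD1hi, where it stood above Rpl32, 49265 in Treg and 72938 in Tconv. Lowest by that mean were Rpl24, Rps20 and Rpl27a, with 1537, 3633 and 3306 in Tconv, where Rpl27a lay below Rps20. Rpl24 and Rps20 were divided by annotated transcripts of 4920 and 3706 bases, so their place in the order rests on that length. Rps27 fell in PD1hi against Tconv by 0.86 ± 0.15 and in Treg against Tconv by 0.64 ± 0.15, and Rps14 by 0.88 ± 0.16 and 0.57 ± 0.16, the last with an adjusted p of 0.0358, or 0.0559 with the replicate block. Rpl27a fell by 0.67 ± 0.15 in PD1hi and by 0.62 ± 0.15 in Treg, both against Tconv.

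Many members have near-identical processed copies in the mouse genome, and how reads that fit several places were counted is not given in the sources used here, so levels of single members are uncertain to that degree. The table lists 138 genes with a pseudogene symbol of the family, which together held 0.0830% to 0.301% of scaled counts, with the second Treg library of experiment 3 highest. Of 84 that were tested, 12 were lower in PD1hi than in Tconv, 5 were lower in PD1hi than in Treg, and none passed the test between Treg and Tconv. None was higher in any comparison. Of all tested genes 11.9%, 8.39% and 5.66% were lower in these comparisons, so the first 2 counts lie near the background. Their median log2 differences were -0.58, -0.40 and -0.12.

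Proteins encoded outside the naming rule behaved partly like the family. Fau, which encodes a ubiquitin-like fusion that releases a small subunit protein, and Gnb2l1, which encodes the scaffold RACK1 on the small subunit, were lower in PD1hi than in Tconv by 0.77 ± 0.16 and 0.89 ± 0.14 on the log2 scale (adjusted p = 0.00361 and 0.000648). They were lower in Treg than in Tconv by 0.62 ± 0.16 and 0.55 ± 0.14 (adjusted p = 0.0208 and 0.0232). Rpl36al, a close copy of Rpl36a, fell by 0.62 ± 0.15 in PD1hi against Tconv (adjusted p = 0.0105). The other 4 tested paralogues did not pass in any comparison. Against Tconv, PD1hi differed by 0.22 for Rps27l, by -0.55 for Rpl22l1, by -0.14 for Rpl7l1 and by 0.84 for the thinly covered Rpl39l. Of the 8 genes of this kind tested, none passed in PD1hi against Treg. Of all tested genes 16.5% were called there, 26.1% in PD1hi against Tconv and 14.4% in Treg against Tconv. With so few genes, the absence of calls in PD1hi against Treg is no result about them.

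Genes of the mitochondrial ribosome, which translates the mRNAs of the mitochondrial genome, were seldom called. Of its 73 genes (Mrps and Mrpl), 1 rose and 3 fell in PD1hi against Tconv, 2 rose and 1 fell in PD1hi against Treg, and 1 fell in Treg against Tconv. Of all tested genes 26.1%, 16.5% and 14.4% were called in these comparisons. The medians of the 73 were -0.08, 0.04 and -0.15, beside 0.00, -0.01 and 0.01 over all tested genes. Mrps6 rose in PD1hi, by 1.43 ± 0.20 against Tconv (adjusted p = 0.000192) and by 0.86 ± 0.20 against Treg (adjusted p = 0.00915), and Mrpl30 fell, by 0.95 ± 0.16 and 0.53 ± 0.16 (adjusted p = 0.000702 and 0.0367).

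Other mRNAs with a known 5′ TOP moved partly as the family did. Of 20 tested, mostly elongation and initiation factors and host genes of small nucleolar RNAs, 14 fell and none rose in PD1hi against Tconv, with a median of -0.63. Over all tested genes 11.9% were lower there, 8.39% in PD1hi against Treg and 5.66% in Treg against Tconv. Eef1a1, the factor that brings aminoacyl-tRNA to the ribosome, averaged 128956 ± 18053 scaled counts in PD1hi and 257814 ± 21776 in Tconv, a log2 difference of -1.01 ± 0.16 (adjusted p = 0.000534). Snhg1 and Snhg5, host genes of small nucleolar RNAs, fell by 1.15 ± 0.18 and 0.94 ± 0.17 (adjusted p = 0.000576 and 0.00148). Against Treg, 3 fell in PD1hi, with Snhg5 at -1.20 ± 0.17 (adjusted p = 0.000382), and 7 fell in Treg against Tconv, with medians of -0.27 and -0.29. Among these was the elongation factor subunit Eef1g, which averaged 10455 ± 1271 in Treg and 17261 ± 1791 in Tconv, a log2 difference of -0.72 ± 0.13 (adjusted p = 0.00282), and stood at 9764 ± 503 in PD1hi. The count of 7 became 1 to 4 when Treg of experiment 5 or 6 or any Tconv value was left out.

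Part of the genes for making ribosomes were also lower against Tconv. Of 48 assembly factors 24 fell and none rose in PD1hi, with a median of -0.48, and 7 fell in Treg, with a median of -0.33. In PD1hi against Treg 1 fell, Nop56, with a median of -0.17. Wdr12, part of a complex that processes large subunit RNA, averaged 715 ± 167 scaled counts in PD1hi, 866 ± 59.7 in Treg and 1565 ± 226 in Tconv, and fell by 1.15 ± 0.19 in PD1hi (adjusted p = 0.000702) and by 0.84 ± 0.19 in Treg (adjusted p = 0.00896). Nop56, a core protein of the box C/D particles that methylate ribosomal RNA, averaged 3426 ± 221 in PD1hi, 4991 ± 452 in Treg and 6591 ± 469 in Tconv and fell by 0.94 ± 0.12 in PD1hi against Tconv (adjusted p = 0.000133) and by 0.54 ± 0.12 against Treg (adjusted p = 0.00936). With all libraries scaled to the same total, or with Tconv of experiment 3 or 6 left out, 12 assembly factors were called in PD1hi against Tconv. In Treg against Tconv 2 to 4 were called when Treg of experiment 5 or 6 or any Tconv value was left out, and 14 when PD1hi of experiment 6 was. Of 13 genes for RNA polymerase I and its factors, which transcribe ribosomal RNA, 5 fell and 1 rose in PD1hi against Tconv, and the 2 largest subunits Polr1a and Polr1b fell by 0.92 ± 0.18 and 0.98 ± 0.21 (adjusted p = 0.00285 and 0.00481). In PD1hi against Treg 1 fell and 1 rose, the activator Ubtf at 0.63 ± 0.17 (adjusted p = 0.0241), and in Treg against Tconv 2 fell. Over all tested genes 11.9% were lower and 14.2% higher in PD1hi against Tconv, 8.39% and 8.16% in PD1hi against Treg, and 5.66% and 8.73% in Treg against Tconv. The counts of both lists in PD1hi against Treg do not exceed these shares and are no result about the lists.

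**Figure D5:**
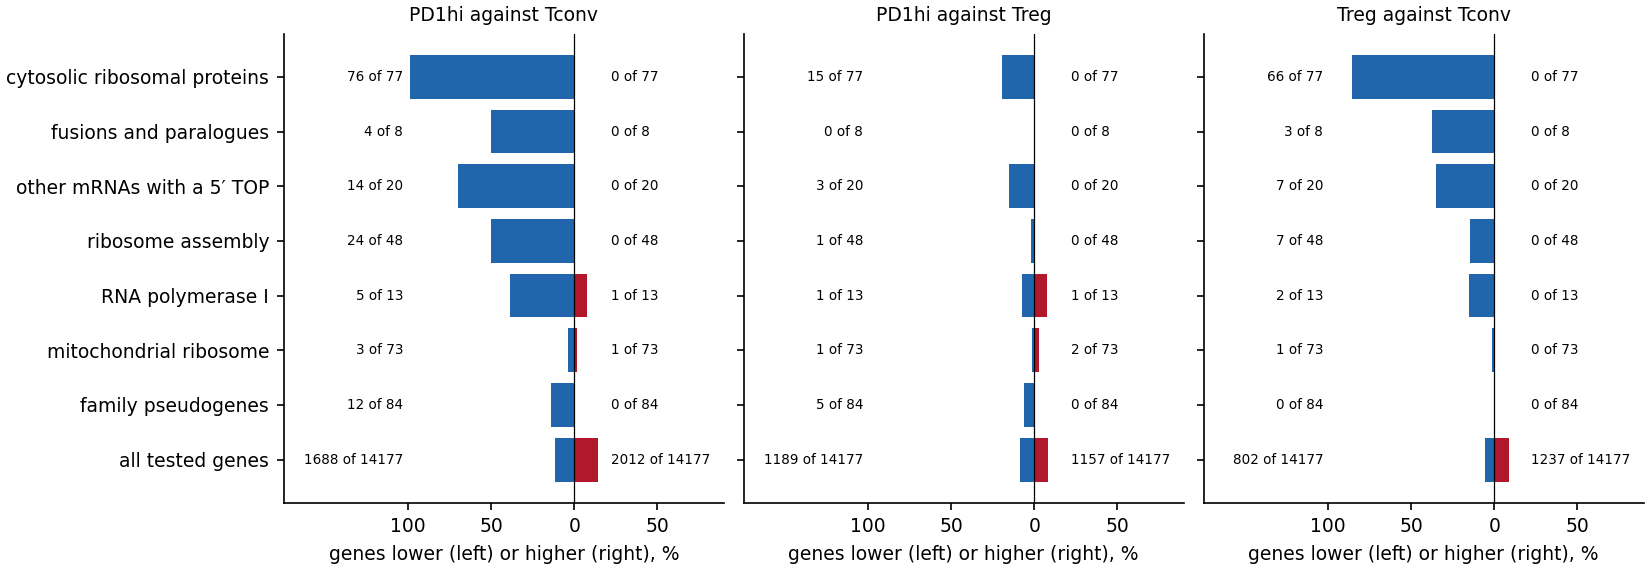
Share of the tested genes of each list called lower (left of 0) or higher (right of 0) in each comparison (x axis, %), with the counts beside the bars and all tested genes in the bottom row. The family has 76, 15 and 66 of 77 lower from left to right, the mitochondrial ribosome 3, 1 and 1 of 73.

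Some known regulators of these genes were called, in both directions. Of 25 tested regulators of mTORC1, of 5′ TOP mRNAs and of the Myc network, 3 rose and 5 fell in PD1hi against Tconv, 1 rose and 5 fell in PD1hi against Treg, and 4 rose and none fell in Treg against Tconv. Over all tested genes 14.2% rose and 11.9% fell in PD1hi against Tconv, 8.16% and 8.39% in PD1hi against Treg, and 8.73% and 5.66% in Treg against Tconv. The counts among 25 genes were not tested against these shares and are no result about the list. Myc had 922, 873 and 640 scaled counts in the PD1hi values of the 3 experiments. The Treg values were 3249, 2412 and 3111 and the Tconv values 3307, 2852 and 3353. PD1hi lay apart from both others, with log2 differences of -1.98 ± 0.17 against Tconv (adjusted p = 6.26e-06) and -1.85 ± 0.17 against Treg (adjusted p = 1.35e-05), while Treg and Tconv overlapped. Sesn1, a sestrin that restrains mTORC1 when amino acids are scarce, had PD1hi values of 643, 821 and 640, Treg values of 5081, 5323 and 5840 and Tconv values of 3160, 3032 and 3640. All populations lay apart. The log2 difference of PD1hi was -2.23 ± 0.14 against Tconv (adjusted p = 6.85e-07) and -2.95 ± 0.14 against Treg (adjusted p = 8.21e-08), and it rose in Treg against Tconv by 0.73 ± 0.14 (adjusted p = 0.00427).

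Larp1, the 5′ TOP binding protein named above and picked for that role after its values were seen, was at 1364, 1305 and 1308 in PD1hi, at 2745, 2222 and 2506 in Treg and at 2754, 2388 and 2959 in Tconv. It fell in PD1hi by 1.02 ± 0.13 against Tconv and by 0.90 ± 0.13 against Treg, and Treg and Tconv overlapped. Mxd1, a Max partner that opposes Myc, averaged 304 ± 7.68 scaled counts in PD1hi, 966 ± 94.5 in Treg and 430 ± 21.2 in Tconv, a rise of 1.16 ± 0.15 in Treg against Tconv (adjusted p = 0.000279). Eif4ebp1, a translation repressor that mTORC1 inactivates, averaged 255 ± 64.4 in PD1hi and 100.6 ± 26.6 in Tconv, a rise of 1.33 ± 0.27 (adjusted p = 0.0031). Of 5 genes of the p53 pathway that Rpl5 and Rpl11 can act on, 1 rose in PD1hi against Tconv, Cdkn1a, a cell cycle inhibitor, by 1.95 ± 0.40 (adjusted p = 0.00355), at 111 ± 11.2 in PD1hi and 29.7 ± 11.997 in Tconv. With 14.2% of all tested genes called higher there, 1 of 5 is no result about the list. None of the 5 passed in the other comparisons, and Mdm2 and Trp53 were not among those called in any.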

How the data were processed

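Total RNA was taken up in Trizol, depleted of ribosomal RNA with RiboMinus and sequenced on Ion Torrent, per the labels' protocols. The tools HTSeq 0.5.4, Picard and limma and the builds mm9, hg19 and GRCh37 are listed, per the submitters' processing notes. Not given in the sources used here are the aligner, the strand setting, the counting of reads with several matches and what each build was for. What the authors deposited is a table of scaled signal for 18649 genes in 13 libraries. After 1 was subtracted, each deposited signal was a whole read number multiplied by a library constant (tolerance 0.01 reads), and this scaled count was used. Depth limits members little, since each had at least 1319 reads in every library.

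Where a population had 2 libraries in an experiment, their mean was used, so 9 values (3 per population) entered the fits; no pair agreed within sampling noise. Genes with a mean of at least 10 were tested with limma 3.58.1 in R 4.3.3 (trend on mean level, all 9 values in 1 fit, 2-sided, Benjamini-Hochberg over 14177 genes) on log2(scaled count + 1). Fold changes are on that scale. The script was tested on simulated data. Departure was tested by the same fit after subtraction of the median log2 level of the 77 members in each value. The family's share and subunit ratio got no test.

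The titles give libraries of the same experiment 1 number, taken as the pairing. Deviations of same-experiment values correlated at 0.243, 0.218 and 0.298 between Treg and Tconv, at 0.197, 0.125 and 0.019 between PD1hi and Tconv, and at 0.092, 0.169 and -0.070 between PD1hi and Treg. Values of different experiments correlated at -0.141 to -0.103, -0.274 to 0.125 and -0.222 to 0.085, in the same order. The fit without a block is the main one.

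Members named with values were the 5 largest falls in each comparison, those departing from the family, the 3 highest and 3 lowest per length, and Rps3, Rps6, Rps19, Rpl5, Rpl11, Rpl13a, Rpl22 and Rps4x; from each other list up to 3 called genes with the largest change, and Rpl38 as the end of a range. A few genes that this rule would name are not reported here. Members and lists were chosen with earlier results of these data known. Lengths are from GENCODE M21 (the shortest complete principal transcript). Alternatives were 2 scalings by totals, another pseudocount (8), no filter or a minimum of 50, leaving out each value, the block, duplicateCorrelation over 13 libraries, leaving out the second Treg library of experiment 3, fits of the 2 populations compared, and limma without a trend. A fit without 2 libraries that stand apart was chosen after seeing the data.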

Additional observations from a re-analysis of the deposited data

Results flagged for a closer look

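In 50 groups of 5 libraries checked for 1 library far from the others (the family's share, the subunit ratio and 23 named members in Treg and in Tconv), 2 were found, and chance flags about 1 in 20 groups. Rpl39 was at 3841 scaled counts in the Tconv library of experiment 3, against 2622 to 2956 in the other 4 Tconv libraries, a gap of 0.725 of the whole range. Without this value the log2 difference of Treg from Tconv was 0.07. Rps3 was at 46827 in the second Tconv library of experiment 6, against 51862 to 53793 in the others, a gap of 0.723 of the range.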

How the results depend on the processing

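In PD1hi against Tconv the family kept its direction under all settings, with 74 to 77 members called when a value was left out and medians of -1.03 to -0.91. In PD1hi against Treg 15 were called, and 6 under either scaling by totals, 5 with only these 2 populations fitted, 2 without a trend, 29 with the replicate block, 31 with duplicateCorrelation, 25 without the 2 libraries that stand apart, and 2 to 22 when a value was left out. In Treg against Tconv 66 were called, 69 with the replicate block, and 34 to 74 when a value was left out. Over all tested genes, leaving out a value gave 2710 to 3833 calls in PD1hi against Tconv. It gave 1764 to 2579 in PD1hi against Treg and 1424 to 2668 in Treg against Tconv. The cause was not tested.

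Departing members numbered 3 in PD1hi against Tconv, 4 with the replicate block, 5 without the second Treg library of experiment 3, 1 without a trend, 7 without the 2 libraries and 1 to 5 when a value was left out. In PD1hi against Treg 1 departed without the 2 libraries. In Treg against Tconv 1 departed, 2 with the replicate block or duplicateCorrelation, 4 without the second Treg library of experiment 3, 8 without the 2 libraries, and 0 to 3 when a value was left out. Of the named members, those whose call the block changed are given in the report.

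Some small differences changed sign. Rpl27a in PD1hi against Treg was 0.026 and 0.012 under the scalings by totals, 0.046 without the 2 libraries, and -0.13 to 0.059 when a value was left out. Rpl35a ran from -0.33 to 0.021 and Rps29 from -0.17 to 0.037 in that comparison, and Rpl39 in Treg against Tconv ran from -0.28 to 0.068. The small over large ratio on the log2 scale was -0.47 in PD1hi, -0.43 in Treg and -0.49 in Tconv, and the difference of medians 0.32, 0.30 and 0.28, another quantity. Leaving mitochondrially encoded genes out of the total gave shares of 4.18%, 5.09% and 7.62%. Over all named members, 1306 values under other settings kept direction and call, 99 lost their call, 37 gained one and 10 changed sign.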
